A study of Mus musculus with 126 samples.

Results

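Hdac1, Hdac2, Hdac3 and Hdac8 are the class I histone deacetylases, enzymes that remove acetyl groups from lysines and that are blocked by Trichostatin A (TSA). The 4 genes were taken by name, as the members of the class, from a table of 23420 genes. All 4 passed the filter on low counts and are 4 of the 15822 genes tested. The values come from the 8 RNA-seq libraries among the 126 samples of a study of mouse embryonic stem cells. Every library was labelled strain J1. Wild type cells were compared with cells of genotype Dnmt1-/-, Dnmt3a-/-, Dnmt3b-/- TKO (triple knockout, TKO), which lack the enzymes that set and copy DNA methylation. Each genotype was kept for 36 h in TSA, at a labelled 5 ng/µl, or in 0.0033% DMSO as the control. All cells grew on gelatin in medium with 10% serum and leukaemia inhibitory factor at 10 ng/ml. The 4 groups, named here by genotype and treatment, have 2 libraries each, which the design text calls biological replicates. The p-values measure the spread between these libraries, and the labels do not say whether the TKO cells are 1 clone.

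Hdac1 and Hdac2 are close relatives that work as the catalytic pair of the Sin3, NuRD and CoREST co-repressor complexes and can often stand in for each other. Hdac3 works inside the NCoR and SMRT complexes, whose subunits are needed for its activity. Hdac8 acts outside these complexes and removes the acetyl group from Smc3, a ring subunit of cohesin. TSA binds the zinc in the active site of class I, II and IV deacetylases, and the NAD-dependent sirtuins are not its targets. The comparisons below ask whether the cells changed the mRNA of the inhibited enzymes, with DNA methylation present or absent.

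Promoters are described because DNA methyltransferases act on CpG sites. Those of Hdac2 and Hdac8 are shown because only these 2 members had an entry in the matching used, and not because of a test result. RefSeq promoters (GRCm38.p6) were used for these 2 of the 4 genes. None was used for Hdac1, or for Hdac3, whose chromosome was left out of the matching. Each sequence is the 250 bases before the gene's start, 5′ to 3′ on the gene's strand, with CpG sites in capitals. The Hdac2 sequence is chr10:36974294-36974543 on the plus strand, and the Hdac8 sequence is chrX:102505159-102505408 on the minus strand.
Hdac2: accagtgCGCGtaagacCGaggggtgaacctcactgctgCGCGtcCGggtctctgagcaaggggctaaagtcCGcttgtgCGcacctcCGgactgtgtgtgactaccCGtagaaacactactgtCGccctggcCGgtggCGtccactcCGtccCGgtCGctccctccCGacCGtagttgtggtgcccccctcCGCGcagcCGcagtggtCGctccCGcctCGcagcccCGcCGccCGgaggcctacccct
Hdac8: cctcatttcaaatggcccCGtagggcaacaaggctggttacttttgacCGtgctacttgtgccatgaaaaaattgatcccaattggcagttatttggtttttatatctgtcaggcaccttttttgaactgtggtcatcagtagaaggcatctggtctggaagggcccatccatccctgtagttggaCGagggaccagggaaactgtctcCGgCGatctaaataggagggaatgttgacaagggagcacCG
The Hdac2 sequence has 27 CpG sites and the Hdac8 sequence has 6. Over the whole promoter window, which runs from 250 bases before to 50 bases after the start, the counts were 36 for Hdac2 and 6 for Hdac8, against a median of 7 over 32851 mouse promoters. The 36 CpG sites put Hdac2 above 93.8% of promoters and the 6 sites put Hdac8 above 43.6%. GC content was 69.7% in the Hdac2 window and 49.7% in the Hdac8 window. The series assayed the factors SP1, NRF1, GABPA, YY1 and MAX, and both windows were searched on both strands for the letters GGGCGGG for SP1, CCGGAAG for GABPA, ATGGCG for YY1, CACGTG for MAX, and for the NRF1 motif. None was found in either window. Of all promoters, 25.6% hold the SP1 letters, 8.86% those of GABPA, 8.93% those of YY1, 7.15% those of MAX and 4.60% the NRF1 motif. Methylation and binding at these promoters were not analysed here.

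The genes lie on different chromosomes. In the mm10 coordinates of the deposited table, Hdac1 spans chromosome 4 from 129516104 to 129542646 on the minus strand in 14 exons. Hdac2 spans chromosome 10 from 36974544 to 37001888 on the plus strand in 14 exons. Hdac3 spans chromosome 18 from 37936971 to 37954988 on the minus strand in 15 exons. Hdac8 spans the X chromosome from 102284640 to 102505148 on the minus strand in 11 exons. No exon base of the 4 genes lies in an exon of another gene of the table. RefSeq lists a pseudogene of Hdac1, Hdac1-ps, on chromosome 17 from 78491565 to 78493541. It is 1977 bases long, close to the 1971 exon bases of Hdac1, and the table has no row for it. How reads that match both were counted is not given in the sources used here, so the level of Hdac1 is uncertain.

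Libraries held 13280631 to 15542527 counts, so 3 counts correspond to 0.193 to 0.226 CPM, the count as a share of the library total, before scaling. Levels below are CPM after TMM scaling of the library sizes. The targeted genes matched the labels. Dnmt1 was at 359.8 to 464 CPM in the wild type libraries and 123 to 134 in the TKO libraries. Dnmt3a was at 151 to 236 against 25.9 to 39.1, and Dnmt3b at 343 to 596 against 43.6 to 76.0. H1f0, a linker histone gene that responds to deacetylase inhibitors, rose with TSA by 1.27 ± 0.17 (log2 fold change ± SE) in wild type and 1.12 ± 0.16 in TKO. Cdkn1a, the cell cycle inhibitor p21, rose by 0.77 ± 0.14 and 1.04 ± 0.14. The cells carried the pluripotency markers, with all 8 listed genes above 1 CPM in every group. In these bulk samples, fewer cells of a type and less RNA per cell cannot be told apart.

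By these counts the 4 genes fell into an abundant pair and a scarce pair. Per kilobase of exon, Hdac2 was at 82.1 to 112 CPM, Hdac3 at 49.5 to 58.6, Hdac1 at 5.62 to 9.30 and Hdac8 at 3.65 to 6.49. This order was the same in each of the 8 libraries. Hdac2 stood above 94.9% of the tested genes in level per kilobase, Hdac3 above 88.9%, Hdac1 above 48.0% and Hdac8 above 41.3%. Hdac2 was 9.19 to 20.0-fold above Hdac1, its partner in the co-repressor complexes, and 1.40 to 2.19-fold above Hdac3. Hdac1 was 1.17 to 1.64-fold above Hdac8. How reads shared with Hdac1-ps were counted is not known, so the rank, ratios and share of Hdac1 are uncertain. Of the summed level per kilobase of the 4 genes, Hdac2 made up 53.0 to 65.0%, Hdac3 29.2 to 37.8%, Hdac1 3.25 to 6.15% and Hdac8 2.11 to 3.86%.

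The depth behind the values differs in the same way. Hdac2 had 2523 to 3296 counts per library, which gives a counting error of 1.74 to 1.99%. Hdac3 had 1264 to 1923 counts and an error of 2.28 to 2.81%. Hdac1 had 162 to 270 counts, with 6.09 to 7.86%, and Hdac8 had 92 to 169 counts, with 7.69 to 10.4%. These errors are for counting alone, as PCR copies of 1 molecule can be counted more than once.

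**Figure D1:**
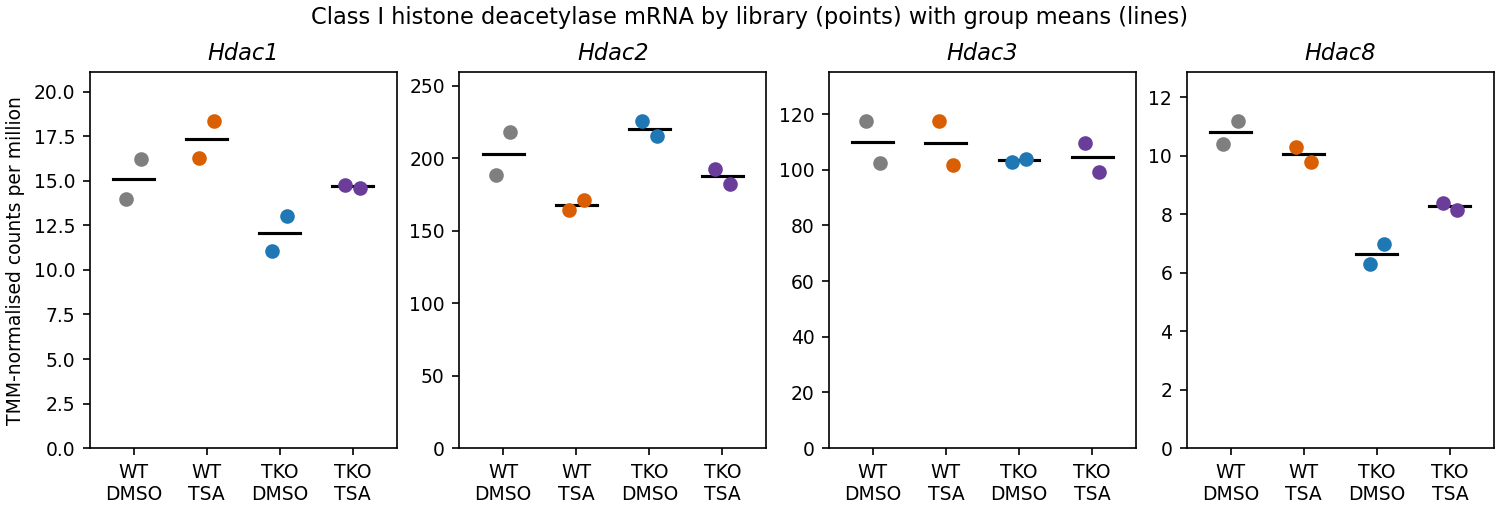
TMM-normalised CPM (vertical axes, each from 0) of Hdac1, Hdac2, Hdac3 and Hdac8 in the 4 groups; points are libraries and lines are group means of 2 libraries. Hdac2 is lower in both TSA groups than in the DMSO group of the same genotype, Hdac8 is lowest in TKO DMSO, and Hdac3 stays between 99.3 and 117 CPM.

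Hdac2, the most abundant of the 4 mRNAs, fell with TSA in wild type cells by 17.3%. It was at 188 and 218 CPM in the wild type DMSO libraries and at 164.5 and 171 CPM in the wild type TSA libraries. Both TSA libraries were below both DMSO libraries. The means were 203 ± 21.4 and 168 ± 4.84 CPM (SD, n = 2), a log2 fold change of -0.27 ± 0.10 (SE) with an edgeR adjusted p of 0.0316. In TKO the values were 225 and 215 CPM in DMSO and 193 and 182 CPM in TSA. The TKO groups did not overlap either, with means of 220.4 ± 7.11 and 188 ± 7.25 CPM (SD, n = 2). Their log2 fold change of -0.23 ± 0.10 had an edgeR adjusted p of 0.0547 and was not called. It was called in a fit to the TKO libraries alone (-0.24, edgeR adjusted p 0.0318) and without the filter on low counts (-0.27). Under upper quartile scaling it was -0.16 (edgeR adjusted p 0.188), and under total counts -0.08 (0.441). Leaving out each library in turn gave -0.28 to -0.20. The difference between the TSA effects of the genotypes was 0.04 ± 0.13 (95% interval -0.25 to 0.34, edgeR adjusted p 0.930).

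The Hdac2 call in wild type was near the threshold. It was lost with DESeq2 (-0.26, adjusted p 0.0517), with a fit to the wild type libraries alone (-0.27, edgeR adjusted p 0.0739), and under upper quartile (-0.13) and total count scaling (-0.07). It was also lost without wild type DMSO replicate 2 (-0.17, edgeR adjusted p 0.176), wild type TSA replicate 1 (-0.25, 0.141) or wild type TSA replicate 2 (-0.31, 0.0878).

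Markers of cell state moved with TSA in the same libraries. In wild type cells the summed level of the 8 pluripotency markers was 3053 to 3441 CPM in DMSO and 1668 to 1855 CPM in TSA. In TKO it was 3909.9 to 4227 in DMSO and 1592 to 1944 in TSA. Nanog in TKO overlapped, at 374.7 and 464.7 CPM in DMSO and 321.8 and 375.2 in TSA. Of 8 trophoblast markers, 4 were above 1 CPM in the DMSO group of wild type cells and 7 in the TSA group, and their sum was 63.6 to 65.1 and 205 to 219.6 CPM. In TKO their sum was 43.4 to 62.0 CPM in DMSO and 263 to 264 in TSA, while Tpbpa, a defining gene of the later trophoblast, had no counts in any library. Tfap2c made up most of the trophoblast sum in TSA, with 118 and 129.6 CPM in wild type and 211 and 195 CPM in TKO. Not every marker followed the sum. Eomes was at 9.35 and 6.32 CPM in DMSO and 6.04 and 5.03 CPM in TSA in wild type, and Krt7 was at 2.33 and 3.86 CPM in DMSO and 2.43 and 3.20 CPM in TSA in TKO. The fibroblast sum was 38.5 to 45.1 CPM in DMSO and 80.3 to 96.1 in TSA in wild type. In TKO it was 10.98 to 11.01 and 36.4 to 54.5. In wild type Col3a1 went the other way, at 5.21 and 3.24 CPM in DMSO and 2.75 and 1.36 in TSA. So did Dcn, at 0.71 and 0.49 CPM in DMSO and 0.06 and 0.14 in TSA. In TKO Dcn was at 1.30 and 0.29 CPM in DMSO and had no counts in TSA. The neural sum was lower with TSA, at 334 to 417 CPM in DMSO and 173 to 206 in TSA in wild type. In TKO it was 295 to 323 and 158 to 166. Map2 went the other way, at 18.1 and 21.4 CPM in DMSO and 39.7 and 42.2 in TSA in wild type. Its TKO values were 20.3 and 17.5 CPM in DMSO and 30.6 and 25.6 in TSA. Nes in TKO was at 64.6 and 54.6 CPM in DMSO and 63.3 and 69.8 in TSA. The endoderm sum was 12.8 to 14.6 CPM in DMSO and 17.1 to 19.6 in TSA in wild type. In TKO it was 26.1 to 28.8 and 36.4 to 40.8. Sox17 in TKO was at 3.90 and 2.91 CPM in DMSO and 13.5 and 13.7 in TSA. Gata4 in TKO went the other way, at 6.50 and 7.13 CPM and 5.82 and 5.71. So did Sox7 in TKO, at 2.33 and 1.89 CPM and 0.88 and 1.07. Gata6 in TKO overlapped, at 3.97 and 6.55 CPM and 3.18 and 4.83. The mesoderm sum was at most 17.7 CPM in any library, and its genes parted in wild type. T was at 12.8 and 6.56 CPM in DMSO and 4.70 and 2.11 in TSA. Kdr was at 2.71 and 2.27 CPM in DMSO and 8.36 and 6.72 in TSA. The part of these markers in the level of Hdac2 was not tested.

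Between genotypes, Hdac2 did not pass the test in either treatment. TKO against wild type gave 0.12 ± 0.10 in DMSO (95% interval -0.09 to 0.33, edgeR adjusted p 0.427) and 0.16 ± 0.10 in TSA (-0.05 to 0.37, edgeR adjusted p 0.272). The highest and lowest groups, TKO DMSO and wild type TSA, did differ, by 0.39 ± 0.10 (edgeR adjusted p 0.00465). The order of the means was TKO DMSO, wild type DMSO, TKO TSA and wild type TSA, and no pair of neighbours in it passed the test.

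Hdac1, the member of the pair with fewer counts, did not pass the test within a genotype or within a treatment. The wild type libraries had 13.98 and 16.2 CPM in DMSO and 16.3 and 18.3 CPM in TSA. The TKO libraries had 11.1 and 13.02 CPM in DMSO and 14.7 and 14.6 CPM in TSA. The TSA libraries were above the DMSO libraries of the same genotype in both cases. The log2 fold change with TSA was 0.20 ± 0.16 in wild type (95% interval -0.14 to 0.54, edgeR adjusted p 0.301) and 0.29 ± 0.16 in TKO (-0.06 to 0.64, edgeR adjusted p 0.144). An increase of up to 1.46-fold in wild type and 1.55-fold in TKO therefore lies inside the intervals. TKO against wild type gave -0.32 ± 0.16 in DMSO (edgeR adjusted p 0.184) and -0.24 ± 0.16 in TSA (edgeR adjusted p 0.316).

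Only the most distant groups of Hdac1 were told apart. TKO DMSO, at 12.05 ± 1.37 CPM (SD, n = 2), was below wild type TSA, at 17.3 ± 1.44, by a log2 fold change of -0.52 ± 0.16 (edgeR adjusted p 0.0146). The call was lost without TKO DMSO replicate 1 (-0.40, edgeR adjusted p 0.120) or wild type TSA replicate 2 (-0.43, 0.102). Wild type DMSO (15.1 ± 1.57) and TKO TSA (14.7 ± 0.09) lay between them and differed by -0.04 ± 0.16 (edgeR adjusted p 0.846). Marcksl1, the nearest gene, lies 122 bases away, edge to edge, on the opposite strand and shares no exon base with Hdac1.

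The ratio of Hdac1 to Hdac2 was higher with TSA in both genotypes. The ratio of the genes within a library does not depend on how libraries are scaled. Hdac2 per kilobase was 13.2-fold above Hdac1 in both DMSO libraries of wild type cells and 9.93 and 9.19-fold above it in their TSA libraries. In TKO it was 20.0 and 16.3-fold above Hdac1 in DMSO and 12.9 and 12.3-fold above it in TSA. On the log2 scale the ratio of Hdac1 to Hdac2 was higher with TSA by 0.47 in wild type and 0.52 in TKO, a mean of 0.50. All 4 TSA libraries were above the DMSO libraries of their genotype. An exact two-sided permutation test of treatment within genotype gave p = 0.0556, the smallest that its 36 arrangements allow, and 0.167 after Benjamini-Hochberg adjustment over the 6 ratios of the 4 genes. Permutation within genotype cannot go below 0.05 here, so the shift is given as a size and a direction. Leaving out each library in turn gave 0.42 to 0.57. Other ratios differed as well. Hdac2 to Hdac8 was lower with TSA by 0.17 in wild type and 0.55 in TKO, with the same exact permutation p of 0.0556. Hdac2 to Hdac3 had differences of -0.27 and -0.25 (exact permutation p 0.111), and Hdac1 to Hdac3 had 0.20 and 0.27 (exact permutation p 0.167). Hdac1 to Hdac8 and Hdac3 to Hdac8 had opposite signs in the genotypes.

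**Figure D2:**
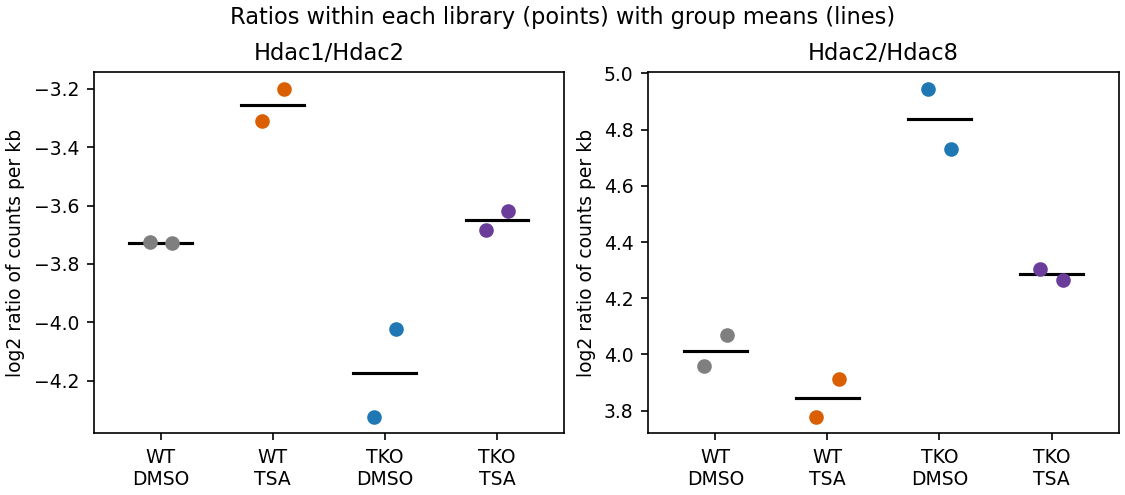
Log2 ratios of counts per kilobase within each library (vertical axes, not from 0) for Hdac1 over Hdac2 and Hdac2 over Hdac8; points are libraries and lines are group means. Hdac1 over Hdac2 is higher with TSA in both genotypes, and Hdac2 over Hdac8 is highest in TKO DMSO.

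Hdac3, the enzyme of the NCoR and SMRT complexes, differed least between the groups. The wild type libraries had 117 and 102 CPM in DMSO, and 117 and 102 CPM again in TSA. The TKO libraries had 103 and 104 CPM in DMSO and 109.8 and 99.3 CPM in TSA. The groups overlapped in each of the 6 pairs. Log2 fold changes lay within 0.09 of 0 and edgeR adjusted p-values ran from 0.521 to 0.975. The 95% intervals of the 6 pairs reached from -0.33 to 0.25, so any difference within them is at most 1.25-fold. That bound holds under TMM scaling. Under total counts TKO DMSO was below wild type TSA by -0.27 (edgeR adjusted p 0.0475), while the median of all tested genes in that comparison moved to -0.18.

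Hdac8, the cohesin deacetylase, was lower in TKO than in wild type cells in DMSO. It was at 10.4 and 11.2 CPM in wild type DMSO and at 6.29 and 6.98 CPM in TKO DMSO. Both TKO libraries were below both wild type libraries, with means of 6.64 ± 0.49 and 10.8 ± 0.54 CPM (SD, n = 2). The fall was 38.5%, a log2 fold change of -0.70 ± 0.17 with an edgeR adjusted p of 0.0157. The direction and the call held with DESeq2 and under each scaling tried. The call was lost without TKO DMSO replicate 1 (-0.63, edgeR adjusted p 0.102) or TKO DMSO replicate 2 (-0.78, 0.0596).

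In TSA the genotypes were closer. Hdac8 was at 10.3 and 9.78 CPM in the wild type libraries and at 8.38 and 8.16 CPM in the TKO libraries, which did not overlap. The log2 fold change was -0.28 ± 0.17 (95% interval -0.65 to 0.09, edgeR adjusted p 0.272). TSA against DMSO gave -0.10 ± 0.17 in wild type (edgeR adjusted p 0.627) and 0.32 ± 0.17 in TKO (edgeR adjusted p 0.139). The wild type value turned to 0.05 under upper quartile scaling and to 0.10 under total counts. The TSA effects of the genotypes differed by 0.42 ± 0.24 (95% interval -0.11 to 0.95, edgeR adjusted p 0.471), so the difference did not pass the test. In the order of the means, wild type DMSO, wild type TSA, TKO TSA and TKO DMSO, no neighbours passed the test, while TKO DMSO was below wild type TSA by -0.60 ± 0.17 (edgeR adjusted p 0.0115). That call was lost without wild type TSA replicate 1 (-0.56, edgeR adjusted p 0.0674) or TKO DMSO replicate 1 (-0.52, 0.0813). TKO TSA against wild type DMSO gave -0.38 ± 0.17 (edgeR adjusted p 0.0683).

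Hdac8 is the X-linked member, and the other genes of the X chromosome give its setting. In DMSO, the 632 tested X-linked genes had a median log2 fold change of -0.00 for TKO against wild type. Of them 88 were called higher and 94, or 14.9%, lower. Of all tested genes 9.63% were called higher and 10.7% lower. With TSA their median was 0.17 in wild type and 0.34 in TKO, where all tested genes had medians of 0.01 and 0.04. The TSA value of Hdac8 in TKO, 0.32, was near that median, and its value in wild type, -0.10, was below the X-linked one. For TKO against wild type in TSA Hdac8 was at -0.28, where the X-linked median was 0.08. The fibroblast marker sum also differed between the genotypes in DMSO. It was 38.5 to 45.1 CPM in wild type, with 5 of 8 markers above 1 CPM. In the TKO libraries it was 10.98 and 11.01 CPM, with 3 of 8. The lower genes were Col1a1, Col1a2, Col3a1 and, at 8 or fewer counts, Postn. Col1a1 was at 12.1 and 12.7 CPM in wild type DMSO and 0.68 and 0.65 in TKO DMSO. Pdgfrb overlapped, at 5.07 and 4.38 CPM in wild type DMSO and 4.17 and 4.58 in TKO DMSO. So did Thy1, at 3.35 and 5.59 CPM and 3.63 and 3.35. Dcn and Lum, both with few counts, overlapped as well. The endoderm sum was 12.8 to 14.6 CPM in wild type DMSO and 26.1 to 28.8 in TKO DMSO. In the same order, the pluripotency sum was 3053 to 3441 and 3909.9 to 4227 CPM, and the mesoderm sum 10.9 to 17.7 and 6.33 to 6.70. The trophoblast sum was 63.6 to 65.1 and 43.4 to 62.0 CPM, and the neural sum 334 to 417 and 295 to 323. Not every marker followed its sum. Nes was at 214 and 134 CPM and 64.6 and 54.6, and Sox1 at 2.28 and 3.00 CPM and 13.7 and 10.5. The part of these markers in the level of Hdac8 was not tested.

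Taking the 4 genes as a group, 1 of 4 was called for TSA in wild type (Hdac2, lower), where 52.8% of all tested genes were called and 25.9% were called lower. For TSA in TKO 0 of 4 were called by edgeR, where 58.7% of all tested genes were. At an unadjusted p under 0.05 that count was 1, Hdac2 (p 0.0327), and DESeq2 also called 0. For TKO against wild type 1 of 4 was called in DMSO (Hdac8, lower), where 20.4% of all genes were called, and 0 of 4 in TSA, where 18.4% were. In that last comparison 0 of 4 had an unadjusted edgeR p under 0.05, and DESeq2 called 0. TKO TSA against wild type DMSO gave 0 of 4 against 61.9%, with 1 member, Hdac8, at an unadjusted p of 0.0443 and 0 called by DESeq2. TKO DMSO against wild type TSA gave 3 of 4 against 57.6%. The interaction gave 0 of 4 against 1.35%, with 0 at an unadjusted p under 0.05 and 0 by DESeq2. These comparisons share groups, so their counts are not independent of each other.

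The sizes were small beside the median of all tested genes under TSA, a comparison that was not matched for level. The median absolute log2 fold change of all tested genes was 0.48 in wild type and 0.54 in TKO, and all 4 deacetylase genes lay below it in both. Their largest TSA change was 0.27 in wild type, for Hdac2, and 0.32 in TKO, for Hdac8. For TKO against wild type in DMSO the median absolute change of all genes was 0.27, and 2 of the 4 genes, Hdac2 and Hdac3, lay below it.

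**Figure D3:**
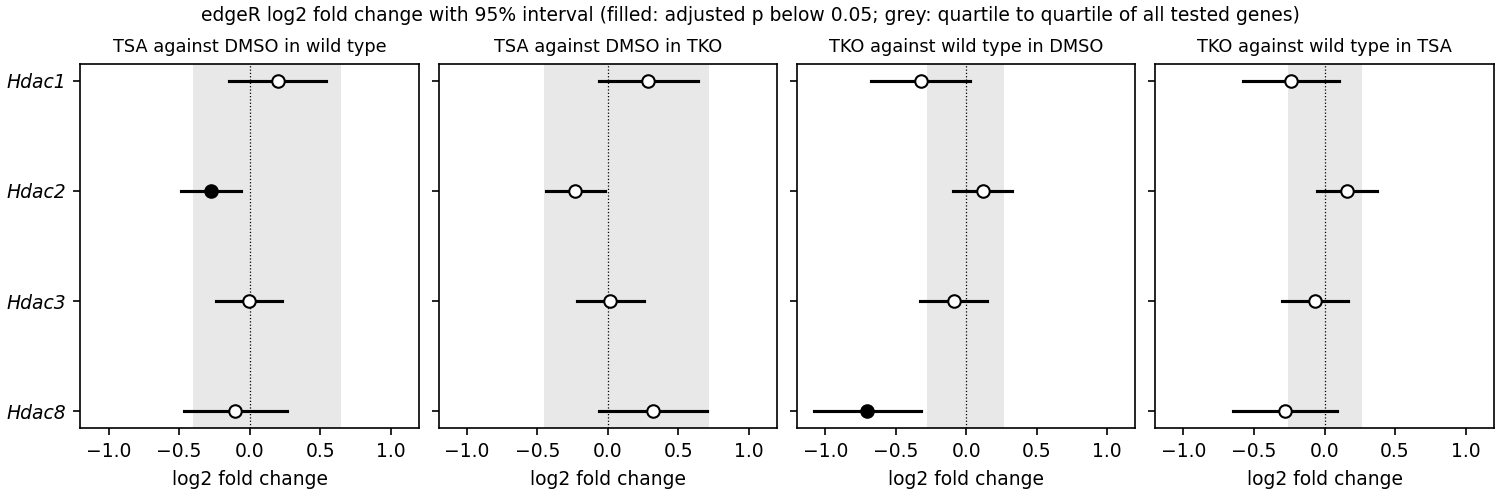
edgeR log2 fold changes (horizontal axes) with 95% intervals of the 4 genes in 4 comparisons; filled points have an adjusted p below 0.05 and grey bands run from the lower to the upper quartile of all tested genes. Under TSA all 4 points lie inside the band in both genotypes, Hdac1 and Hdac8 lie left of the band for TKO against wild type in DMSO, and Hdac8 lies left of it in TSA as well.

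Scaling decides the zero against which these TSA values are read. TMM scaling put the median of all tested genes at 0.01 in wild type and 0.04 in TKO, and total counts put it at 0.22 and 0.19. The 4 genes moved with it by construction, as a scaling shifts every gene of a library alike. Values relative to the median therefore stay nearly the same under any scaling and lend no support to a call. Relative to the median of all genes, Hdac2 was at -0.29 under TMM and at -0.28 under total counts in wild type, and at -0.27 under both in TKO. Hdac1 was at 0.19 in wild type and 0.25 in TKO under both, and Hdac3 at -0.02 in all of these. Hdac8 was at -0.11 in wild type and 0.28 in TKO under both. Under total counts the TSA values in TKO of Hdac1 (0.43, edgeR adjusted p 0.0394) and Hdac8 (0.47, 0.0415) passed the test.

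**Figure D4:**
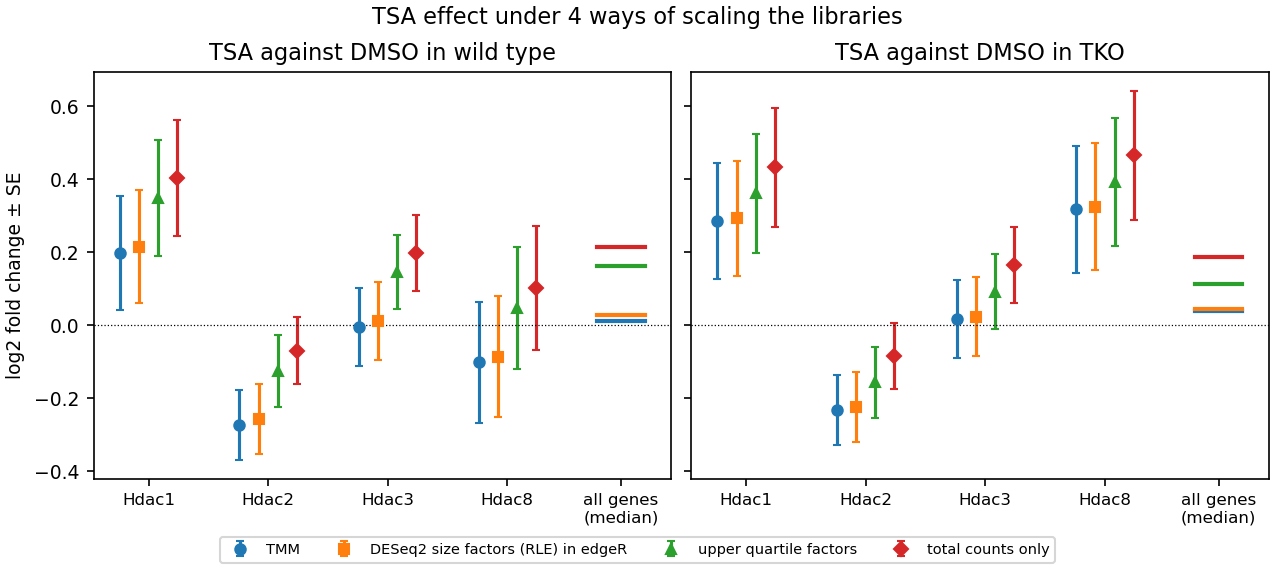
Log2 fold change with TSA (vertical axis) ± SE of the 4 genes under 4 ways of scaling the libraries, with the median of all tested genes at the right of each panel. The genes and the median shift together by construction, the median in wild type from 0.01 under TMM to 0.22 under total counts.

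The complexes around the deacetylases and related enzymes were described by 81 listed genes. With TSA in wild type 12 of them rose and 34 fell, so 56.8% were called, where 52.8% of all tested genes were called, 27% higher and 25.9% lower. In TKO 17 rose and 37 fell, so 66.7% were called, where 58.7% of all tested genes were, 30.8% higher and 27.9% lower. The share called was thus near that of all genes in wild type, and the counts of the single lists are to be read against the same shares. Their median log2 fold change was -0.24 in both, against 0.01 and 0.04 for all tested genes. Under total counts 22 of them fell in TKO, where 3267 of the 15822 tested genes were called lower. Among the 10 NuRD subunits, partners of Hdac1 and Hdac2, 8 fell and 1 rose in wild type, and 7 fell and 1 rose in TKO. Cdk2ap1 fell by 1.82 ± 0.23 in wild type and 1.93 ± 0.23 in TKO. The 2 methyl-CpG-binding family subunits, which occupy the same place in the complex, parted. Mbd3 fell by 0.93 ± 0.15 and 0.90 ± 0.15, and Mbd2, which binds methylated DNA, rose by 0.78 ± 0.12 and 1.06 ± 0.12. Each value is a log2 fold change ± SE, first in wild type and then in TKO.

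The histone-binding pair shared by Sin3 and NuRD parted as well. Rbbp4 fell by 0.48 ± 0.09 in wild type and 0.43 ± 0.09 in TKO, and Rbbp7 rose by 0.69 ± 0.11 and 0.58 ± 0.11. Of 13 Sin3 subunits 3 rose and 1 fell in wild type, which is 30.8% called against 52.8% of all tested genes, and 5 rose and 3 fell in TKO. Sap18 rose by 0.73 ± 0.13 in both, and Sap30 fell by 0.70 ± 0.12 and 0.55 ± 0.12. Of 10 CoREST subunits 4 fell in wild type, and 4 fell and 2 rose in TKO. Rcor2, a scaffold that holds the deacetylase to the demethylase, fell by 1.06 ± 0.12 and 1.24 ± 0.12. Of 6 MiDAC and MIER subunits 2 fell in wild type and 3 in TKO, among them Mier3, by 0.63 ± 0.12 and 0.76 ± 0.12.

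Hdac3, which did not pass the test, works with the NCoR and SMRT subunits. Of the 5 listed, 3 fell and 1 rose in each genotype, where 52.8 and 58.7% of all tested genes were called, and with 5 genes nothing particular to the complex is read from the count. Ncor1, the scaffold that activates Hdac3, had 292 and 304 CPM with DMSO and 150.0 and 148 CPM with TSA in wild type cells. In TKO cells it had 381 and 371 CPM with DMSO and 193 and 169 CPM with TSA. It fell by 0.997 ± 0.09 and 1.06 ± 0.09. Tbl1xr1, a subunit that binds histone tails, fell by 1.08 ± 0.12 and 1.11 ± 0.12. Gps2 rose by 0.72 ± 0.17 and 1.13 ± 0.17. The interval of Hdac3 with TSA was -0.24 to 0.23 in wild type and -0.22 to 0.25 in TKO.

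For Hdac8 the listed partners are cohesin and its acetylation. Of 11 genes 4 fell with TSA in wild type and 5 in TKO. That is 36.4 and 45.5% called, where 52.8 and 58.7% of all tested genes were. Stag2, a cohesin subunit on the X chromosome, fell by 0.76 ± 0.13 and 0.45 ± 0.13. It was also lower in TKO than in wild type in DMSO, by 0.57 ± 0.13. In that comparison it was the 1 gene of this list called, or 9.09%, where 20.4% of all tested genes were. Smc3, the substrate of Hdac8, had TSA values of 0.21 ± 0.10 in wild type and 0.21 ± 0.10 in TKO, with edgeR adjusted p-values of 0.100 and 0.0946, and was looked up after its list was counted.

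**Figure D5:**
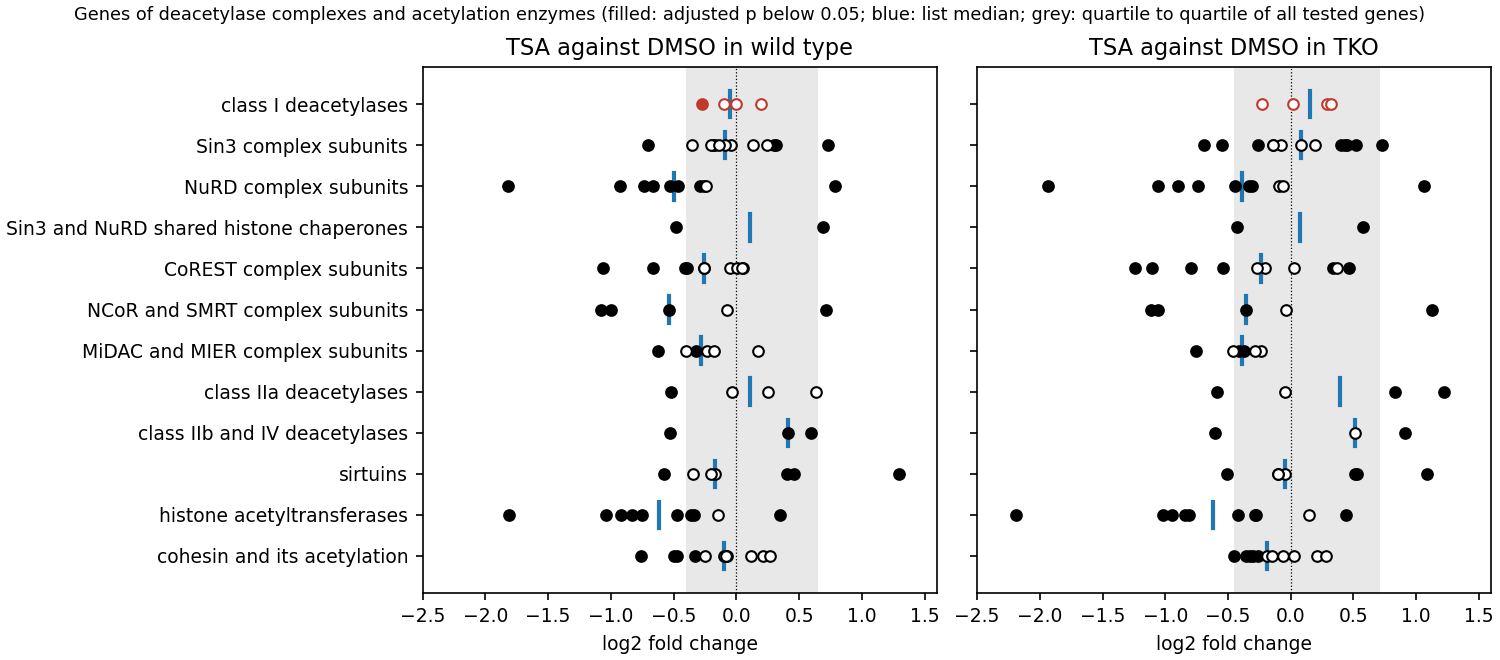
Log2 fold change with TSA (horizontal axes) of each listed gene, by complex or enzyme family (rows), in wild type and TKO; filled points have an edgeR adjusted p below 0.05, blue bars are list medians and the grey band runs from the lower to the upper quartile of all tested genes. The class I genes (red) lie within 0.32 of 0 in both panels, and the acetyltransferases and NuRD subunits lie mostly to the left.

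The other deacetylases spread in both directions. Hdac4, of class IIa, fell with TSA by 0.52 ± 0.11 in wild type and 0.59 ± 0.11 in TKO. Hdac6, the tubulin deacetylase, rose by 0.41 ± 0.12 and 0.91 ± 0.12. Hdac10 fell by 0.53 ± 0.17 and 0.60 ± 0.18. Hdac11 rose by 0.60 ± 0.20 in wild type and had 0.51 ± 0.21 in TKO (edgeR adjusted p 0.0515). Of 7 sirtuins, which TSA does not target, 3 rose and 1 fell in each genotype, with Sirt4 higher by 1.30 ± 0.24 and 1.09 ± 0.24. Of 10 histone acetyltransferases, the enzymes of the opposite reaction, 8 fell and 1 rose in each genotype, where 25.9 and 27.9% of all tested genes were called lower. Kat2b fell by 1.81 ± 0.14 and 2.19 ± 0.14, and Crebbp by 1.04 ± 0.11 and 1.02 ± 0.11.

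Between the genotypes in DMSO 3 of the 81 listed genes were called higher and 8 lower, with a median of -0.02. That is 13.6% called, where 20.4% of all tested genes were called, 9.63% higher and 10.7% lower. Hdac7, of class IIa, was lower in TKO by 2.13 ± 0.34, at 8.63 and 4.62 CPM in wild type and 1.23 and 1.82 CPM in TKO. Rbbp7 was lower by 0.50 ± 0.11 and Hdac10 by 0.64 ± 0.17. The 4 class I genes had a median of -0.21 in that comparison.

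Some genes followed the members closely across the 8 libraries. Over the 10022 genes whose mean reached 10 CPM, Pearson's r of log2 CPM with Hdac2 was highest for Cnot4 (0.995), Snrpb2 (0.994) and Prc1 (0.992). For Hdac1 it was highest for Narg2 (0.986), Atxn10 (0.969) and Mfap3 (0.966), and for Hdac8 for Prkra (0.980), Igf1r (0.977) and Idnk (0.974). For Hdac3 it was highest for Mlf2 (0.974), Pofut2 (0.972) and Chmp4b (0.924). Cnot4 had means of 77.9 and 53.2 CPM for DMSO and TSA in wild type cells, and of 92.6 and 64.3 CPM in TKO cells. Igf1r had means of 79.3 and 72.0 CPM in wild type cells and 37.5 and 51.1 CPM in TKO cells. The 8 points are libraries that share the group structure and the scaling, and the genes were picked as the highest of many, so r is given as a description.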

How the data were processed

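RNA was measured in 8 libraries of mouse embryonic stem cells, 2 for each combination of genotype (wild type, TKO) and treatment (DMSO, TSA). The other 118 samples of the series were not analysed here. The authors deposited raw read counts per gene with exon coordinates and summed exon length in bases per gene. Per the labels' protocols, the RNA was DNase-treated, depleted of ribosomal RNA, made into strand-directional libraries and sequenced as paired reads. TopHat2 2.0.13, featureCounts 1.4.5-p1, edgeR 3.22.3 and mm10 are named in the submitters' processing notes. How strand and multi-mapping reads were handled, and which annotation was used, is not given in the sources used here.

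The main test was the quasi-likelihood F test of edgeR 4.0.16 (R 4.3.3), run on the counts of the 15822 genes that filterByExpr left, after TMM scaling. A single fit to the 8 libraries had a mean per group and 4 residual degrees of freedom. Two-sided p-values were adjusted by Benjamini-Hochberg within each of 7 contrasts over every tested gene, and adjusted values below 0.05 were called. SE and 95% intervals come from the F statistic of each contrast and are approximate. Intervals are not adjusted over genes. Alternatives were DESeq2 1.42.0, 3 other scalings, no filter, a replicate block, fits to the compared groups alone and leave-one-out. On simulated counts for TSA in wild type (14496 genes tested), 55.2% of 1.5-fold and 89.6% of 2-fold changes were recovered. Only 67, 67 and 66 genes were changed there, by 1.5, 2 and 4-fold. In the real data far more genes were called, so these shares are not the power of the reported tests. No pair of replicates agreed within sampling noise (chi-square per degree of freedom 5.28 to 12.2).

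The 4 genes, the lists and the naming rule were chosen with earlier results of these data known. The rule names the 4 genes, the targeted genes, H1f0 and Cdkn1a. From each list it names up to 3 called genes of at least 1 CPM with the largest change in each TSA contrast and in TKO against wild type in DMSO, some of which are left out here. For each member it adds the 3 genes of highest correlation. Ratios within a library were taken per kilobase of exon. Promoters came from RefSeq (GRCm38.p6).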

Additional observations from a re-analysis of the deposited data

Results flagged for a closer look

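Hdac8 had TSA effects of opposite direction in the genotypes. Both wild type TSA libraries (10.3 and 9.78 CPM) were below both wild type DMSO libraries (10.4 and 11.2 CPM), and both TKO TSA libraries (8.38 and 8.16 CPM) were above both TKO DMSO libraries (6.29 and 6.98 CPM). The difference of the effects, tested as an interaction, was 0.42 on the log2 scale with an edgeR adjusted p of 0.471, and so did not pass the test. It lay between 0.35 and 0.50 when each library was left out in turn. The wild type direction depends on scaling, being -0.10 under TMM and 0.10 under total counts.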

How the results depend on the processing

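Of the member results under 8 kinds of alternative, all but those below kept direction and side of the threshold. The cause of each difference was not tested, beyond the shift of the all-gene median that a scaling makes by construction. For TSA in wild type, the count of called members was 0 under upper quartile and total count scaling, DESeq2 and a fit to the wild type libraries alone, with Hdac2 at -0.13, -0.069, -0.26 and -0.27. Values near 0 changed sign. Hdac3 for TSA in wild type was at 0.012 with DESeq2 size factors, 0.15 with the upper quartile, 0.20 with total counts, 0.0063 with DESeq2 and 0.0038 with the wild type libraries alone, and Hdac8 was at 0.047 and 0.10 under the upper quartile and total counts. For TSA in TKO, the count was 2 under total counts (Hdac1 0.43, Hdac8 0.47), and 1, Hdac2, without the filter (-0.27) and with the TKO libraries alone (-0.24), and Hdac3 was at -0.018 without the filter. For TKO TSA against wild type DMSO, the upper quartile gave Hdac1 0.068 and Hdac3 0.035, and total counts gave Hdac1 0.13, Hdac2 0.055 and Hdac3 0.096. For TKO DMSO against wild type TSA under total counts, Hdac2 was no longer called (0.21, edgeR adjusted p 0.0699) and Hdac3 was (-0.27). The interaction of Hdac2 was -0.031 and -0.015, and that of Hdac3 -0.053 and -0.034, under the upper quartile and total counts, with Hdac3 at -0.0051 without the filter.

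Of the 81 listed genes, 22 were called lower for TSA in TKO under total counts, where 3267 of all 15822 tested genes were. For TKO TSA against wild type DMSO 22 were called higher under total counts, where TMM gave 14. Of all tested genes 6064 were called higher under total counts and 5015 under TMM. For TKO DMSO against wild type TSA 13 and 15 were called lower under the upper quartile and total counts, where TMM gave 8. The counts of all tested genes called lower were 5408, 5874 and 4688. Genes called for the interaction, 213 under the model reported, numbered 488 without the filter and 394 with DESeq2.

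Replicate numbers are shared between groups, and the labels do not say what a number stands for. Between groups, libraries of the same number had correlated deviations (r from 0.0586 to 0.366, above 0.1 in 5 of 6 pairs of groups). Not every pair was above 0.1, so the model reported has no block, though the correlations were positive in all 6 pairs. With the replicate block, Hdac2 was called for TSA in TKO (-0.23, edgeR adjusted p 0.0424), which made 1 member there. With the block 8 listed genes were called higher and 8 lower for TKO against wild type in TSA, where 4 and 4 were called without it. Of all tested genes 2229 were called higher and 1868 lower with the block, and 1584 and 1326 without it. For the interaction 633 genes were called with the block. The block changed no other call of a member.

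Leaving out each library in turn, where the lone library of a group is assumed to vary like the others, gave 0 to 1 called members for TSA in wild type, TSA in TKO and TKO against wild type in DMSO, and 1 to 3 for TKO DMSO against wild type TSA. For TSA in wild type Hdac2 ran from -0.38 to -0.17 and Hdac3 from -0.12 to 0.096, and for TSA in TKO Hdac2 from -0.28 to -0.20 and Hdac3 from -0.061 to 0.086. For TKO against wild type in DMSO Hdac8 ran from -0.78 to -0.63 and Hdac2 from -0.0033 to 0.23, and in TSA Hdac3 from -0.17 to 0.039. For TKO TSA against wild type DMSO Hdac1 ran from -0.15 to 0.065 and Hdac3 from -0.17 to 0.021. For TKO DMSO against wild type TSA Hdac1 ran from -0.64 to -0.40, Hdac8 from -0.67 to -0.52 and Hdac3 from -0.18 to 0.027. The interaction ran from -0.026 to 0.21 for Hdac1, -0.068 to 0.16 for Hdac2 and -0.078 to 0.13 for Hdac3. Called genes ran from 1458 to 3330 for TKO against wild type in DMSO, 941 to 3443 in TSA and 10 to 410 for the interaction. At 92 to 169 counts, Hdac8 carries a counting error of up to 10.4%. The simulation recovered 55.2% of 1.5-fold changes, but few of its genes were changed and no smaller change was simulated. Changes of the size seen in Hdac1 and Hdac8 with TSA can be missed, at a rate that is not known here.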
